A study of Mus musculus with 8 samples.

Results

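A list of 10 genes of neutrophils was followed through whole aortic trees of mice given vehicle or VitD. They were chosen by symbol, 10 of the 48587 symbols in the count table, and all 10 were present. The list holds the calgranulins S100a8 and S100a9, the surface antigen Cd177, the stefin Stfa2l1, the resistin-like gene Retnlg, the granule protein genes Ngp, Camp, Ltf and Mpo, and the cytokine receptor gene Csf3r. Poly-A enriched, stranded RNA libraries came from mice that were either WT or labelled with a knockout of Tet2 in vascular smooth muscle cells, and each genotype received either vehicle or VitD (vitamin D). The 4 groups, WT_vehicle, WT_VitD, Tet2KO_vehicle and Tet2KO_VitD, held 2 libraries each, 8 in all, with 15679274 to 22332149 counts per library. The sources used here name no strain, age, dose, duration, driver of the deletion or number of mice per library. Whether the 2 libraries of a group are different mice is also not said, and the p-values then measure only spread between libraries, which may be technical. The series is about smooth muscle Tet2, osteogenic differentiation and medial calcification.

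Neutrophils are short-lived granulocytes made in the bone marrow under the cytokine G-CSF, which acts through the receptor encoded by Csf3r. They fill their granules in a fixed order: myeloperoxidase and serine proteases are made by early precursors, lactoferrin and cathelicidin by later ones, and transcription of granule genes largely ends before the cells reach the blood. Circulating and tissue neutrophils keep very high levels of S100a8 and S100a9 RNA.

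Levels are given as CPM, counts scaled to library size with TMM factors for composition, and 1 count was worth 0.0440 to 0.0662 CPM. Changes were tested with edgeR's quasi-likelihood test over all 16194 genes that passed its filter on low counts, with Benjamini-Hochberg adjustment, and a gene was called at an adjusted p under 0.05. Of the 10 genes 8 passed the filter, and Camp and Mpo did not. In these bulk samples, more or fewer cells of a type and more or less RNA per cell cannot be told apart.

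The tissue and genotype labels were checked first. Smooth muscle markers (Myh11, Acta2, Tagln, Cnn1, Smtn) summed to between 14711 and 29135 CPM per library. Tet2, the gene labelled as deleted, stood at 18.3 to 35.8 CPM in WT and at 26.6 to 42.0 CPM in the libraries labelled Tet2 knockout, so its gene-level count did not bear out the label; the sources used here do not say which part is deleted. All genotype directions given here depend on the label. Library names carry numbers that form a lower range (5 libraries) and a higher range (3 libraries); no label names these as batches. Both WT_VitD libraries and Tet2KO_VitD 1 are in the higher range. Only Tet2KO_VitD 2 among VitD libraries has a number in the lower range, so in WT the treatment and the range cannot be told apart. No other group than Tet2KO_VitD holds both ranges. Any fit with range as a covariate, in WT too, therefore takes its range effect from the difference between the 2 Tet2KO_VitD libraries.

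The name of the list was also checked. Ly6g, the antigen used to define mouse neutrophils, had 0, 2, 0, 1, 3, 0, 0 and 0 counts in WT_vehicle 1 and 2, WT_VitD 1 and 2, Tet2KO_vehicle 1 and 2 and Tet2KO_VitD 1 and 2, and was not tested. Cxcr1 likewise had at most 1 count in any library. Cxcr2, the main chemokine receptor of mouse neutrophils, named after its values were seen, stood at 0.373 and 0.171 CPM in WT_vehicle and at 3.44 and 7.19 CPM in WT_VitD. Retnlg and Stfa2l1, which few other cells make, were detected in all 4 VitD libraries, and Retnlg in every vehicle library too. Ly6g, Cxcr1 and Cxcr2 are outside the list. The neutrophil markers checked thus lay both near 0 and well above it. The name neutrophil genes states how the list was chosen, not which cells were present.

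The first comparison was between VitD and vehicle in WT mice. In WT aorta the calgranulins, Retnlg, Cd177, Stfa2l1 and Csf3r rose, and the granule genes Ngp and Ltf were not called. The fold ran from 3.92 for Csf3r to 15.7 for S100a9 among the 4 called genes with counts under vehicle, and Cd177 and Stfa2l1, with none there, have lower bounds only. Of the 8 tested genes 6 were called higher and none lower, where 10.6% of all tested genes were called higher, 9.47% lower and 20.1% in either direction. Cd177 and Stfa2l1 passed the filter only through VitD libraries and had no count in WT_vehicle. In WT these genes could therefore only be called higher, and they count in the 6, in the median and in the order of libraries below. Ltf also passed the filter only with the WT_VitD libraries counted in, and it counts in that median and order. The same 6 were those with an unadjusted p under 0.05, against 38% of all tested genes. The median log2 fold change of the 8 was 3.66, and it was also 3.66 with Cd177 and Stfa2l1 at their bounds, against -0.028 over all tested genes. In 8 of 8 tested genes, and in Camp, both WT_VitD libraries lay above both WT_vehicle libraries, an order seen in 33.8% of all tested genes, while 35.3% showed the opposite order; Mpo overlapped. The count of calls was 5 without WT_VitD 1, 1 without WT_vehicle 1 and 0 without WT_vehicle 2 or WT_VitD 2, and 0 with number range added as a covariate, fits in which 1007, 226, 594, 140 and 58 genes were called in all.

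**Figure D1:**
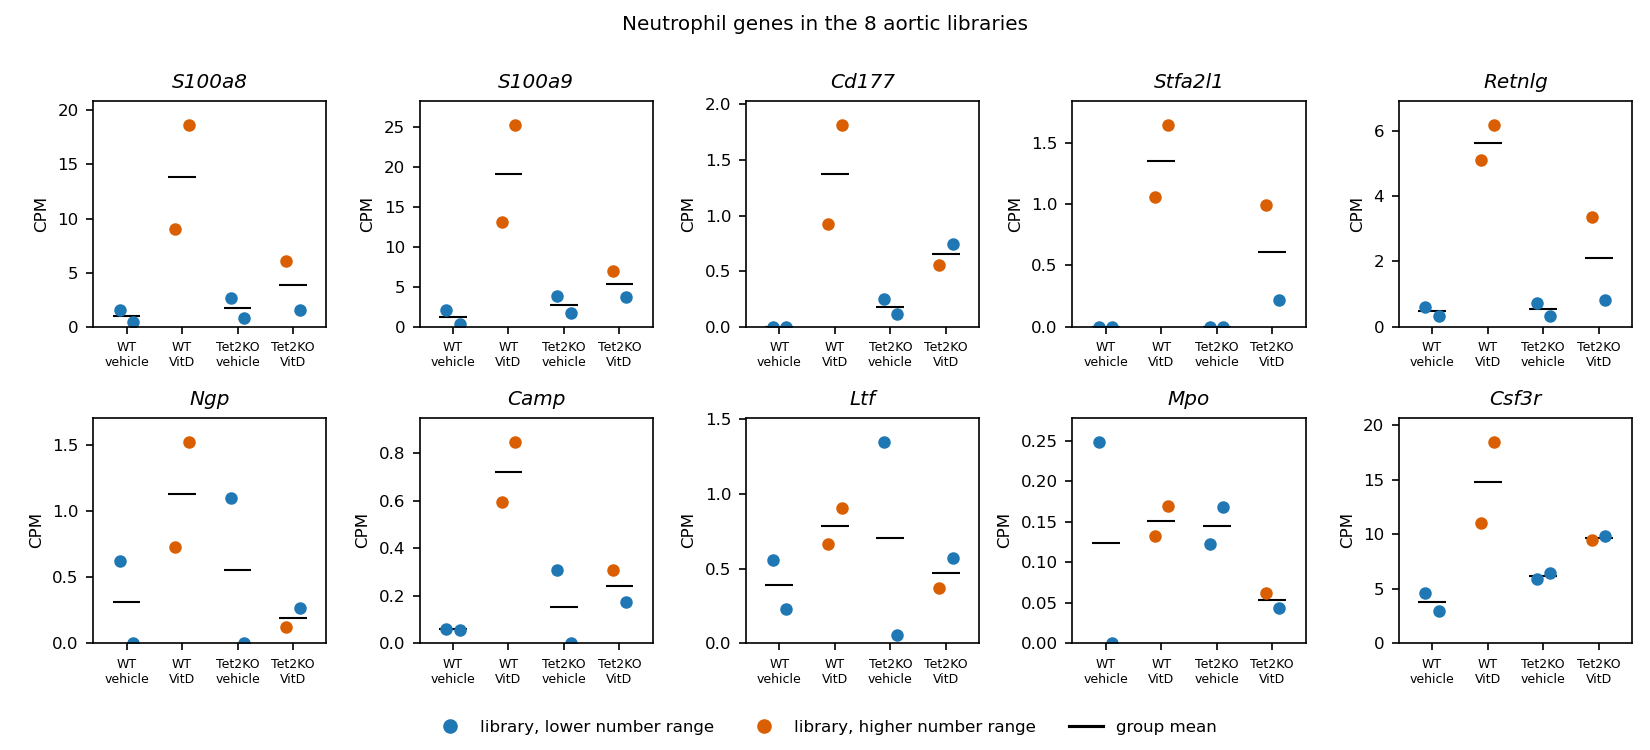
CPM (vertical axes, linear from 0) of each of the 10 genes in the 8 libraries, with 1 point per library, coloured by library number range, and a line at each group mean. S100a8, S100a9, Retnlg and Csf3r lie higher in both WT_VitD libraries than in any vehicle library, while Ngp, Ltf and Mpo stay at 27 counts or fewer in every library.

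S100a8 and S100a9 encode the calgranulins, small calcium-binding proteins that form the heterodimer calprotectin, bind zinc and manganese and act as alarm signals on TLR4. They are neighbours on chromosome 3 in mm10 (GENCODE M21), S100a8 at 90668978 to 90670035 on the plus strand and S100a9 at 90692632 to 90695721 on the minus strand, with 22.6 kb between them. S100a8 stood at 1.55 and 0.456 CPM in WT_vehicle, 9.0 and 18.6 CPM in WT_VitD, 2.64 and 0.838 CPM in Tet2KO_vehicle and 6.09 and 1.58 CPM in Tet2KO_VitD. The WT groups did not overlap, whereas Tet2KO_VitD 2 lay between the Tet2KO_vehicle libraries. In WT the change was 13.8-fold (log2 3.79, SE 0.847, adjusted p = 0.0210 by edgeR). S100a9 stood at 2.11 and 0.342 CPM in WT_vehicle, 13 and 25.2 CPM in WT_VitD, 3.87 and 1.68 CPM in Tet2KO_vehicle and 6.96 and 3.74 CPM in Tet2KO_VitD, so it was highest in the same library as S100a8. It rose 15.7-fold in WT (log2 3.97, SE 0.754, adjusted p = 0.0139). The difference between the WT_VitD libraries was itself larger than counting error, since the exact 95% Poisson intervals of S100a8 were 7.55 to 10.6 and 16.7 to 20.7 CPM. Such intervals cover counting error only.

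The calgranulin genes kept similar proportions to each other. S100a8 made up 42.4% of the summed S100a8 and S100a9 counts in WT_vehicle 1, 57.1% in WT_vehicle 2, 40.8% and 42.5% in WT_VitD, 40.6% and 33.3% in Tet2KO_vehicle, 46.7% in Tet2KO_VitD 1 and 29.8% in Tet2KO_VitD 2. The 95% Wilson interval of Tet2KO_VitD 2, 22.3% to 38.4%, did not overlap that of Tet2KO_VitD 1, 40.0% to 53.4%, and the interval of WT_vehicle 2 was wide, 32.6% to 78.6% of 14 counts. Apart from Tet2KO_VitD 2, whose interval also lay below that of WT_VitD 2 (39.1% to 46.0%), the intervals of the libraries overlapped.

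The promoters of this pair are shown because both genes rose together in WT. Each runs from 250 bases before to 50 after the RefSeq start in GRCm38.p6, the assembly that mm10 represents, and is written 5′ to 3′ on the gene's strand. Capitals mark matches on either strand to TTNNGNAA, a loose form of the site of C/EBP factors, which drive granulocyte genes, or to GAGGAAG, a form of the site of PU.1. S100a8 (chr3:90668821-90669120, plus strand) held a match to each motif, and S100a9 (chr3:90695672-90695971, minus strand) held 2 matches to TTNNGNAA.
S100a8: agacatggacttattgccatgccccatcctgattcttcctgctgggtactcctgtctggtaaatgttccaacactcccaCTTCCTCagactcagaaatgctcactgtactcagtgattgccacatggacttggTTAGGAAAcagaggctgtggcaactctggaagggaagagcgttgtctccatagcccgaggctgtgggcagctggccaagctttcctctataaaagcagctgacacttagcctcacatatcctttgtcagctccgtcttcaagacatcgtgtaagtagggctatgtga
S100a9: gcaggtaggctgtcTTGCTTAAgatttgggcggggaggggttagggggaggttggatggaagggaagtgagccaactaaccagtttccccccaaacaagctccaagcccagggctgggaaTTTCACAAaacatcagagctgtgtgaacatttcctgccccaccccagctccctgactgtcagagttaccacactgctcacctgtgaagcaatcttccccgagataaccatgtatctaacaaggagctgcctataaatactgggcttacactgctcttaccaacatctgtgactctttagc
TTNNGNAA was found in the promoters of 7 of the 10 genes and in 40.7% of 32851 RefSeq mouse promoters of the same length. GAGGAAG was found in 3 of the 10 (S100a8, Mpo, Csf3r) and in 13.6% of all promoters. These matches describe letters in the windows and were not tested as binding sites.

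Csf3r (chromosome 4, 126024550 to 126044440, plus strand), the G-CSF receptor, is carried by neutrophils and their precursors and at lower levels by monocytes. It was the best-counted member in vehicle aorta, with 52 to 115 counts per vehicle library. It stood at 4.60 and 2.96 CPM in WT_vehicle, 11.1 and 18.5 CPM in WT_VitD, 5.89 and 6.42 CPM in Tet2KO_vehicle and 9.44 and 9.81 CPM in Tet2KO_VitD. The groups did not overlap in either genotype, and the Tet2KO libraries of a group lay close together. The WT rise was 3.92-fold (log2 1.97, SE 0.335, adjusted p = 0.0107).

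Cd177 (chromosome 7, 24743983 to 24760311, minus strand) encodes a GPI-anchored neutrophil antigen that takes part in migration through endothelium. It had 0 counts in both WT_vehicle libraries, 14 and 32 in WT_VitD, 4 and 2 in Tet2KO_vehicle and 9 and 17 in Tet2KO_VitD. Against a floor of 3 counts over the WT_vehicle group it was at least 15.4-fold higher under VitD (adjusted p = 0.0121 by edgeR). Unlike S100a8, it was not lower in Tet2KO_VitD 2 (0.748 CPM) than in Tet2KO_VitD 1 (0.559 CPM).

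Stfa2l1 (chromosome 16, 36156811 to 36161953, plus strand) belongs to the stefin A cluster, which encodes cytosolic inhibitors of cysteine cathepsins, and Retnlg (chromosome 16, 48872621 to 48874496, plus strand) encodes a resistin-like secreted protein of mouse neutrophils. Stfa2l1 had 0 counts in all 4 vehicle libraries, 16 and 29 in WT_VitD, and 16 and 5 in Tet2KO_VitD. It was at least 15.1-fold higher under VitD in WT (adjusted p = 0.0234). Reads of near-identical stefin genes could be split or lost in counting, so its level is uncertain. Retnlg stood at 0.622 and 0.342 CPM in WT_vehicle, 5.10 and 6.17 CPM in WT_VitD, 0.736 and 0.335 CPM in Tet2KO_vehicle and 3.35 and 0.836 CPM in Tet2KO_VitD. Its WT_VitD libraries were the closest to each other of the called genes, and it rose 11.6-fold (log2 3.54, SE 0.734, adjusted p = 0.0174).

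Other genes of these families were measured too. Of 5 further stefin genes none passed the filter. Stfa1 had 0 counts in each vehicle library, 4 and 3 in WT_VitD and 7 and 1 in Tet2KO_VitD, and Stfa3 had 8 and 4 in WT_VitD and 5 and 0 in Tet2KO_VitD, with 1 count in Tet2KO_vehicle 1. BC100530 had 1 and 8 counts in WT_VitD and Stfa2 had 0 and 2, and Csta1 had 1 count in all. Of the 3 other resistin genes 2 were tested, where Retnla, a product of alternatively activated macrophages, fell in WT (log2 -1.45, adjusted p = 0.0380) and Retn, an adipocyte hormone in mice, had a log2 of 0.52 (adjusted p = 0.321). Of 9 other S100 genes and calgranulin receptors 6 were called higher and none lower in WT (median log2 1.27), and the most abundant, S100a6, S100a11 and S100a10, which many cell types make, had log2 fold changes of 1.58, 1.37 and 1.61.

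The granule protein genes were counted at few reads. Ngp (neutrophilic granule protein), Camp (cathelicidin) and Ltf (lactoferrin, an iron-binding protein) are products of later granules and lie on chromosome 9, at 110419747 to 110423012, 109847379 to 109849617 and 111019271 to 111042767. Mpo (myeloperoxidase, chromosome 11, 87793581 to 87804413) belongs to the earliest granules. Ngp had 10 and 0 counts in WT_vehicle, 11 and 27 in WT_VitD, 18 and 0 in Tet2KO_vehicle and 2 and 6 in Tet2KO_VitD. Both vehicle groups thus held 1 library with none and 1 with at least 10. The log2 fold change in WT was 1.88 (SE 1.44, adjusted p = 0.363). Ltf had 9 and 4 counts in WT_vehicle, 10 and 16 in WT_VitD, 22 and 1 in Tet2KO_vehicle and 6 and 13 in Tet2KO_VitD, and its log2 in WT was 0.997 (SE 1.06, adjusted p = 0.518). The highest library for Ltf was a vehicle library, Tet2KO_vehicle 1.

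Camp had 1 count in each WT_vehicle library, 9 and 15 in WT_VitD, 5 and 0 in Tet2KO_vehicle and 5 and 4 in Tet2KO_VitD. In humans this gene is a direct target of the vitamin D receptor through an element that the mouse gene lacks. Without the filter on low counts, Camp had a log2 fold change of 3.49 in WT (adjusted p = 0.0371 by edgeR). Mpo had 4, 0, 2, 3, 2, 3, 1 and 1 counts in WT_vehicle, WT_VitD, Tet2KO_vehicle and Tet2KO_VitD, in that order of libraries. At that depth no difference in Mpo was detectable.

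Ngp and Ltf are shown next to the calgranulins as the 2 granule genes that could be tested, and their promoters held 3 and 2 matches to TTNNGNAA, again in capitals. The windows are chr9:110419558-110419857 and chr9:111019042-111019341, both on the plus strand, in GRCm38.p6.
Ngp: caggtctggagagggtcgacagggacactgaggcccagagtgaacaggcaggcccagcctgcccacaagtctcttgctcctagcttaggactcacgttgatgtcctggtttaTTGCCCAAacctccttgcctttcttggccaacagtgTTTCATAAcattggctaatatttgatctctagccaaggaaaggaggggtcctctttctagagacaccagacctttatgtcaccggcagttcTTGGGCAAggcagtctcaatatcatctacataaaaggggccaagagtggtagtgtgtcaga
Ltf: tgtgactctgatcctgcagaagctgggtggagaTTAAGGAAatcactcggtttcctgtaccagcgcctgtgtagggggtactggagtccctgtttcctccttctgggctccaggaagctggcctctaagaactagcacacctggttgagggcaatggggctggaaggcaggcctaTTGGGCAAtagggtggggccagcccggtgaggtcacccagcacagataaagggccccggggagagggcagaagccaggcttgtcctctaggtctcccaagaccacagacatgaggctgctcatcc
Camp, whose counts in WT_VitD also lay above those in WT_vehicle, had no match to either motif in its window.

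The make-up of the counts differed between the libraries of Tet2KO_vehicle. The 4 granule genes gave 14.4% of the counts of all 10 genes in WT_vehicle 1 (95% Wilson interval 9.85% to 20.5%) and 17.7% in Tet2KO_vehicle 1 (13.6% to 22.8%). In the other 6 libraries they gave 2.33% to 6.49%. Both of these high libraries were vehicle libraries, and their intervals lay above those of all 4 VitD libraries, which ran from 1.84% to 8.58%. In WT_vehicle 2 the share was 6.49% (2.81% to 14.3%), which overlapped both WT_vehicle 1 and the VitD libraries.

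**Figure D2:**
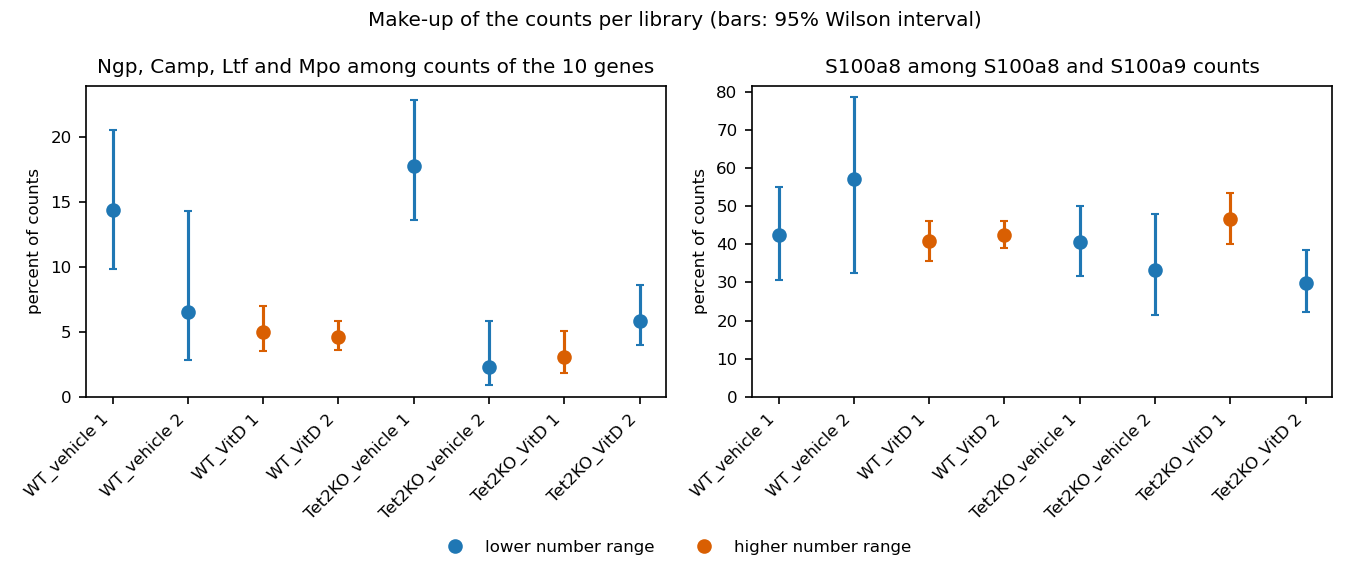
Percent of counts (vertical axes) per library, with 95% Wilson intervals that cover counting error only, coloured by library number range. The left panel shows Ngp, Camp, Ltf and Mpo among the counts of all 10 genes, at 14.4% and 17.7% in WT_vehicle 1 and Tet2KO_vehicle 1 and at most 6.49% elsewhere, and the right panel shows S100a8 among S100a8 and S100a9 counts, lowest in Tet2KO_VitD 2 at 29.8%.

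Levels of different genes were compared per kb of merged exons. In WT_VitD S100a9 was the highest at 36.6 ± 16.5 CPM per kb (SD, n = 2), followed by S100a8 at 19.9 ± 9.80, with overlapping libraries. Retnlg followed at 9.50 ± 1.28 CPM per kb, below every S100a8 library of that group. Csf3r at 4.10 ± 1.46 and Stfa2l1 at 3.22 ± 0.983 CPM per kb overlapped. Camp at 0.953 ± 0.236, Ngp at 0.923 ± 0.463 and Cd177 at 0.482 ± 0.220 CPM per kb came next, where Ngp overlapped both of its neighbours. Ltf at 0.227 ± 0.050 and Mpo at 0.044 ± 0.008 CPM per kb were the lowest and did not overlap. S100a9 and S100a8 had the highest group means in the other 3 groups as well.

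The same treatment comparison was made among libraries labelled Tet2 knockout. None of the 8 tested genes was called by edgeR, where 0.179% of all tested genes were called higher, 0.0185% lower and 0.198% in either direction. Of the 8 genes 3 had an unadjusted p under 0.05 (Cd177, Stfa2l1, Retnlg), against 13.3% of all tested genes. DESeq2 called none, with 2 at an unadjusted p under 0.05, and gave 3 of the 10 genes no adjusted p. That DESeq2 fit called 461 of 28001 genes. For Retnlg the log2 fold change was 1.94 (SE 0.722, adjusted p = 0.309), Cd177 1.86 (SE 0.775, adjusted p = 0.366), S100a8 1.13 (SE 0.789, adjusted p = 0.534), S100a9 0.94 (SE 0.682, adjusted p = 0.545) and Csf3r 0.64 (SE 0.323, adjusted p = 0.416). Stfa2l1 was at least 6.92-fold higher (adjusted p = 0.228). Ngp and Ltf had log2 values of -1.40 (SE 1.54) and -0.53 (SE 1.04). The groups did not overlap in 4 tested genes, each higher under VitD (Cd177, Stfa2l1, Retnlg, Csf3r), an order seen in 23.7% of all tested genes. Stfa2l1, with no count in Tet2KO_vehicle, could only be higher. Mpo, not tested, was lower in both VitD libraries at 1 count each. The median log2 of the 8 was 1.04, against -0.0051 over all tested genes.

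The Tet2KO_VitD libraries differed from each other by gene. S100a8, Retnlg and Stfa2l1 were higher in Tet2KO_VitD 1, of the higher number range, than in Tet2KO_VitD 2, with 98 against 36, 54 against 19 and 16 against 5 counts. Csf3r and Cd177 were similar in both. Compared within the lower range, where Tet2KO_VitD 2 stands alone against Tet2KO_vehicle, the log2 fold change of S100a8 was -0.11, of Retnlg 0.66, of S100a9 0.45, of Csf3r 0.68 and of Cd177 2.05, none of them called (adjusted p from 0.807 to 0.994). Without Tet2KO_VitD 2, edgeR called Stfa2l1 (adjusted p = 0.0325) and Retnlg (log2 2.64, adjusted p = 0.0247) higher, in a fit that called 1898 of 16938 genes. In both of these fits a single VitD library is assumed to vary like the other groups.

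**Figure D3:**
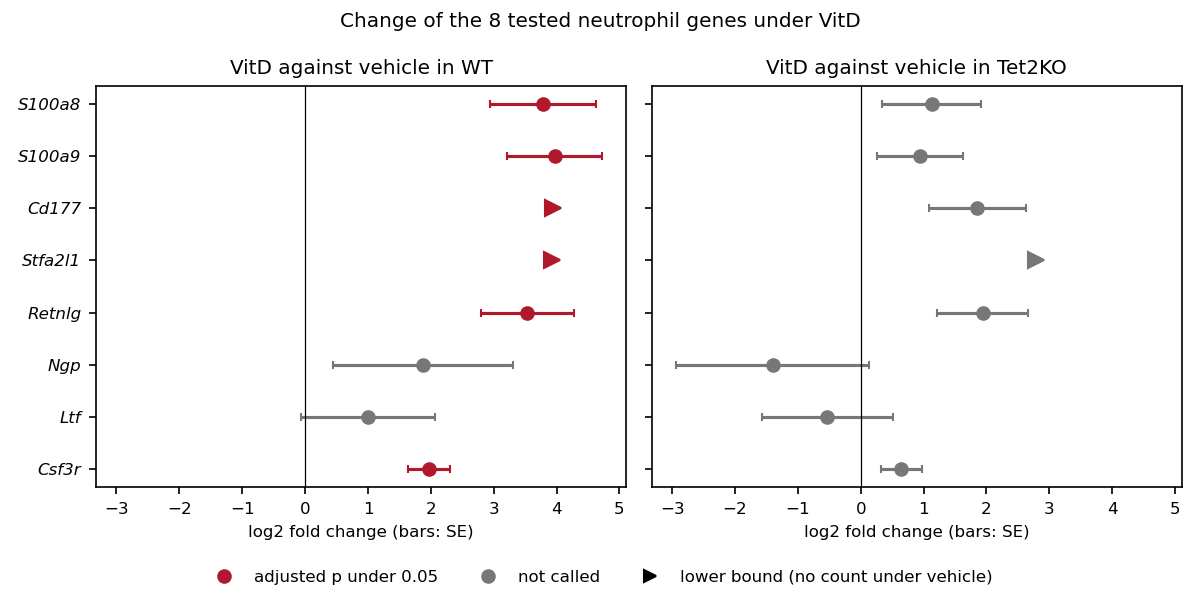
log2 fold change with its SE (horizontal axes) of the 8 tested genes for VitD against vehicle in WT (left) and in libraries labelled Tet2 knockout (right); red marks an adjusted p under 0.05, and triangles are lower bounds for genes with no count under vehicle. In WT 6 genes are red, and in Tet2KO none is, with Ngp and Ltf left of 0.

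The genotypes were compared under each treatment. Under VitD all 8 tested genes, and Camp and Mpo, had lower CPM in both Tet2KO_VitD libraries than in both WT_VitD libraries. For Stfa2l1 this rests on scaling, since WT_VitD 1 and Tet2KO_VitD 1 had equal counts (1.06 and 0.994 CPM). Mpo had 5 counts over WT_VitD and 2 over Tet2KO_VitD, too few to rank. Among all tested genes 21.6% showed that order and 22.2% the opposite. None of the 8 tested genes was called by edgeR, which called 0% of all genes here. An unadjusted p under 0.05 was found for 2 of them, against 10.6% of all tested genes: S100a9 (log2 -1.85, SE 0.661, adjusted p = 0.467) and S100a8 (log2 -1.87, SE 0.752, adjusted p = 0.467). DESeq2 called none, with 3 at an unadjusted p under 0.05, and gave 2 of the 10 genes no adjusted p. That DESeq2 fit called 92 of 28001 genes. The other differences were -1.45 for Retnlg, -1.06 for Cd177, -0.62 for Csf3r, -1.20 for Stfa2l1, -2.46 for Ngp and -0.71 for Ltf, and the median of the 8 was -1.32. The 10 genes share their cells and libraries, so they are not 10 separate observations. Cd177, Stfa2l1 and Ltf passed the filter on low counts only with the WT_VitD libraries counted in. Being high enough in WT_VitD is thus part of why they are among the 8, and they count in the order of libraries and in the median above. Without the filter on low counts edgeR called S100a8 (adjusted p = 0.000279) and S100a9 (adjusted p = 4.07e-05) lower, in a fit that called 610 of 28001 genes. With number range as a covariate edgeR called 0 of 8, and 0 had an unadjusted p under 0.05, in a fit that called 16 of 16194 genes. Both WT_VitD libraries are in the higher range and Tet2KO_VitD 2 is in the lower. The range effect in that fit rests on the difference between the 2 Tet2KO_VitD libraries alone, so it cannot separate range from genotype. When 1 library was left out the log2 ran from -3.14 to -1.19 for S100a8 and from -2.37 to -1.29 for S100a9.

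Under vehicle none was called by edgeR, with 0% of all genes called. An unadjusted p under 0.05 was found for 1 of 8, Cd177, against 2.97% of all tested genes. DESeq2 called none, with 1 under 0.05, in a fit that called 19 of 28001 genes, but gave 6 of the 10 genes no adjusted p. Cd177 had 6 counts over Tet2KO_vehicle and 0 over WT_vehicle, at least 2.0-fold, and with no count in WT_vehicle it could only be higher. Csf3r and Cd177 did not overlap between the groups and were higher in Tet2KO_vehicle, an order seen in 14.3% of all tested genes. Csf3r had a log2 of 0.71 (SE 0.333, adjusted p = 1). The libraries of the groups overlapped in the other tested genes. The interaction, which asks whether the VitD response differed between genotypes, was called for 0 of 8 genes by edgeR and for 0% of all genes. An unadjusted p under 0.05 was found for 4 of the 7 genes with a value, against 6.21% of all tested genes. DESeq2 called none, with 4 under 0.05, in a fit that called 18 of 28001 genes, and gave 1 of the 10 genes no adjusted p. The interaction log2 was -3.03 for S100a9 (SE 0.996, adjusted p = 0.794), -2.66 for S100a8 (SE 1.14) and -1.33 for Csf3r (SE 0.460). Cd177 is the other gene under 0.05. With no count in WT_vehicle, its interaction is a fitted value against no count, and it passed the filter only with WT_VitD counted in. The call in WT and its absence in Tet2KO thus do not show that the responses differ. Without the filter on low counts the interaction of S100a8 (adjusted p = 0.00116) and S100a9 (adjusted p = 5.87e-06) was called, in a fit that called 403 of 28001 genes. With number range as a covariate edgeR called the interaction for 0 of 8, with 3 at an unadjusted p under 0.05, in a fit that called 7 of 16194 genes.

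Other neutrophil genes, taken from lists, are given by role. Of 11 further surface and signalling genes 9 were tested, and 8 were called higher in WT, with a median log2 of 3.72. Among the most abundant, Clec4d (a C-type lectin also on monocytes) and Il1r2 (the decoy receptor of interleukin-1) rose with log2 fold changes of 4.67 and 5.83. Il1r2 stood at 6.29 and 11.4 CPM in WT_VitD against 0.186 and 0.114 CPM in WT_vehicle. In Tet2KO none of the 9 was called by edgeR, and 4 had an unadjusted p under 0.05, with 7.27 and 1.67 CPM of Il1r2 in Tet2KO_VitD, the same order of libraries as for Retnlg.

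Of 8 other later-granule genes 6 were tested and 3 were called higher in WT. These were Hp (haptoglobin, also made by liver and fat), Lcn2 (lipocalin, induced in many cells) and Cybb (the oxidase subunit shared with macrophages), with log2 values of 3.30, 6.05 and 1.91. Lcn2 was the 1 of them called in Tet2KO (log2 4.18, adjusted p = 0.0144). Mmp8, the neutrophil collagenase, stood at 0.435 and 0.057 CPM in WT_vehicle and 1.99 and 4.19 CPM in WT_VitD (adjusted p = 0.0623); it was named after its values were seen. Fcnb had 2 counts and Olfm4 5 counts in all libraries together. Among early-granule genes Prtn3 (proteinase 3) was the 1 of 4 tested and was called higher in WT (log2 1.77, adjusted p = 0.0480). Elane, neutrophil elastase, had 1 to 7 counts per library, Ctsg had at most 5 and Ms4a3 had none.

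Ligands and regulators were measured alongside. Of 9 CXCR2 ligands and granulopoietic cytokines 7 were tested and 4 were called higher in WT (median log2 3.13), among them the chemokine Cxcl1 (log2 3.13, adjusted p = 0.00667). Csf1, the macrophage growth factor, and Ppbp, a platelet chemokine, had log2 values of 0.17 and 1.16 and were not called. Csf3, which encodes the ligand of Csf3r and was named after its values were seen, had 5 and 4 counts in WT_vehicle, 10 and 31 in WT_VitD, 0 and 5 in Tet2KO_vehicle and 10 and 21 in Tet2KO_VitD (WT log2 2.15, adjusted p = 0.124). Of 7 granulocyte transcription factors 6 were tested and 3 were called higher in WT. Cebpd rose (log2 1.89), Cebpa and Cebpb had log2 values of -0.18 and 0.91 without a call, and Cebpe, which drives later granules, had at most 6 counts per library.

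Markers of other cells moved with these genes to different degrees. Macrophage markers, 11 of 11 tested, summed to 531 and 546 CPM in WT_vehicle, 1612 and 1792 CPM in WT_VitD, 557 and 727 CPM in Tet2KO_vehicle and 1491 and 1015 CPM in Tet2KO_VitD, and 10 of 11 were called higher in WT. All 4 monocyte markers and all 10 genes shared by myeloid cells were called higher in WT as well. Smooth muscle markers summed to 28270 and 29135 CPM in WT_vehicle, 21937 and 14711 CPM in WT_VitD, 29017 and 27016 CPM in Tet2KO_vehicle and 19713 and 27338 CPM in Tet2KO_VitD. Of these 5, Myh11 (log2 -1.84, adjusted p = 0.0246) and Smtn (log2 -1.38, adjusted p = 0.0450) were called lower in WT and none was called higher; both are named after their values were seen. The part of these cells in the levels of Csf3r and the calgranulins was not tested. The 10 neutrophil genes summed to 10.4 and 4.39 CPM in WT_vehicle, 42.3 and 75.4 CPM in WT_VitD, 16.3 and 9.60 CPM in Tet2KO_vehicle and 28.3 and 18.0 CPM in Tet2KO_VitD, far below the macrophage markers in every library.

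Blood content was read from 5 erythroid markers (haemoglobin genes and Alas2), none of which was at 0 in any library. They summed to 828 and 291 CPM in WT_vehicle, 297 and 882 CPM in WT_VitD, 931 and 437 CPM in Tet2KO_vehicle and 313 and 83.3 CPM in Tet2KO_VitD, and 0 of 5 were called by edgeR in WT, with 0 at an unadjusted p under 0.05. In Tet2KO 0 of 5 were called too, but 4 had an unadjusted p under 0.05 and the median log2 was -1.85. Within each of the 4 groups, the library with more erythroid RNA also had the higher CPM of S100a8, S100a9, Retnlg and Camp. Ngp, Ltf and Mpo followed that order in 3 of 4 groups and Csf3r, Cd177 and Stfa2l1 in 2 of 4. With the macrophage sum in place of the erythroid sum, S100a8, S100a9, Retnlg, Camp and Csf3r followed in 3 of 4 groups. Ngp, Ltf and Stfa2l1 then followed in 2 of 4, Cd177 in 1 of 4 and Mpo in 4 of 4. Camp in WT_vehicle and Mpo in Tet2KO_VitD had equal counts in both libraries, so library size alone set their order there. Stfa2l1 under vehicle and Cd177 in WT_vehicle had no count to order. Between treatments in WT the erythroid sums overlapped and the S100a8 levels did not. Platelet markers, also from blood, had 3 of 5 called higher in WT. The part of blood in the WT levels was not tested. Between genotypes under VitD the erythroid sum was lower in Tet2KO_VitD 2 than in any other library, and its part in the lower S100a8 there was not tested.

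**Figure D4:**
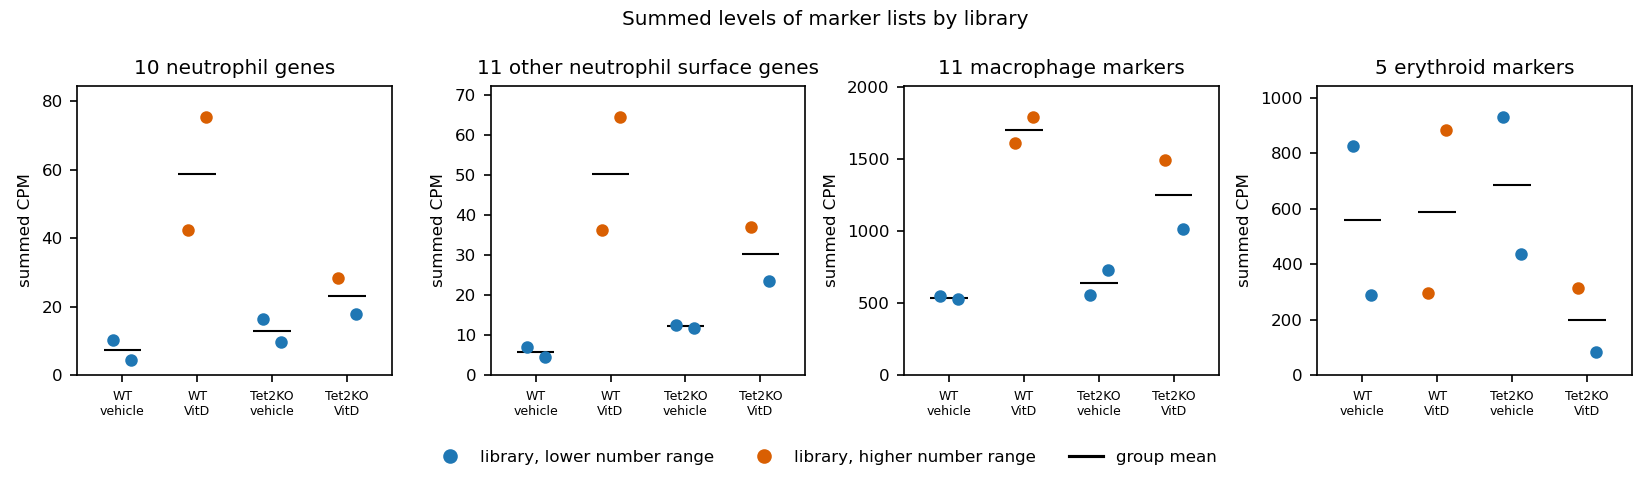
Summed CPM (vertical axes, linear from 0) of the 10 neutrophil genes, 11 other neutrophil surface genes, 11 macrophage markers and 5 erythroid markers in the 8 libraries, coloured by library number range, with a line at each group mean. The neutrophil and macrophage sums of WT_VitD lie above both vehicle groups, whereas the erythroid sums of WT_VitD, 297 and 882 CPM, overlap those of WT_vehicle.

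Genes were compared by profile, as the root mean square difference between log2 CPM values centred on their mean over the 8 libraries. Among members, S100a8 was closest to Retnlg (0.42) and to S100a9 (0.42), Stfa2l1 to Retnlg (0.45) and Ngp to Ltf (0.69), while Stfa2l1 and Ngp were the farthest apart (1.68). Among the other tested genes, those closest to S100a9 were Hmmr (0.49), Kntc1 (0.51), Ccnb2 (0.51), Cdca3 (0.52) and Parpbp (0.57). Those closest to S100a8 were Cdca3 (0.52), Depdc1a (0.54), Cenpf (0.55), Steap1 (0.56) and P4ha3 (0.58). Hmmr, Kntc1, Ccnb2, Cdca3 and Cenpf are genes of mitosis, Steap1 encodes a metalloreductase and P4ha3 a collagen prolyl hydroxylase. These profiles share their libraries and depth, and the ranking is a description.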

How the data were processed

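The authors deposited raw counts of reads for each symbol in 1 table of 8 libraries. The submitters' processing notes name mm10, featureCounts 2.0.2, STAR 2.7.8a and Trimmomatic 0.39; for annotation, strand and multi-mapped reads no setting is given in the sources used here. Groups and replicate numbers come from the sample titles. Counts were fitted with edgeR 4.0.16 in R 4.3.3 (TMM, filterByExpr, 1 mean per group over all 8 libraries, 4 residual degrees of freedom), and 5 contrasts were tested. An SE is the size of the log2 fold change over the root of F. A fold against a group with no count is a bound against 3 counts over the group. Where both groups held at most 3 counts no fold is given (Stfa2l1 under vehicle, and its interaction).

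The members and all lists (other neutrophil genes by role, macrophages, monocytes, eosinophils, mast cells, erythroid cells, platelets, squamous epithelium, thymocytes, smooth muscle, endothelium) were chosen with earlier results of these data known. The 10 members were always named; of other lists, up to 3 tested genes with the highest mean CPM and untested genes as counts, with any other said to be chosen after its values were seen; 1 gene that this rule names is not reported here. The 5 tested genes nearest in profile to S100a8 and S100a9 were also named.

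Alternatives were DESeq2 size factors, upper quartile factors, DESeq2 1.42.0, no filter, a minimum of 1 CPM in 2 libraries, a block for replicate number, a covariate for number range, only the groups compared, and leaving out each library. The procedure was tested on simulated counts. Coordinates and exon lengths are from GENCODE M21 (mm10) and promoters from RefSeq (GRCm38.p6), in which all 10 members matched by symbol.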

Additional observations from a re-analysis of the deposited data

How the results depend on the processing

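With 2 libraries per group the calls in WT depended on single WT libraries. The count of called genes in WT was 6 of 8 and stayed at 6, with the same 6 genes, under DESeq2 size factors, upper quartile factors, DESeq2, the replicate block and a fit of only the groups compared. It was 4 of 5 tested with 1 CPM in 2 libraries, 7 of 10 without a filter and 0 with number range added as a covariate, and it ran from 0 to 6 when 1 library was left out. Over those fits the log2 fold change in WT stayed between 3.15 and 4.91 for S100a8, 3.18 and 5.78 for S100a9, 3.17 and 4.02 for Retnlg and 1.55 and 2.33 for Csf3r. In Tet2KO it was 2 without a filter and 0 to 2 when 1 library was left out; for genotype under VitD and for the interaction it was 2 each without a filter. The cause was not tested. In WT, genes called in all were 3233 of 16194 with DESeq2 size factors and 3214 of 16194 with upper quartile factors. They were 3863 of 28001 by DESeq2, 2474 of 16194 with the replicate block and 4597 of 15413 with only the groups compared. With 1 CPM in 2 libraries 3227 of 15019 were called, and without a filter 4808 of 28001. In Tet2KO 1225 of 28001 were called without a filter. The replicate numbers are not said to mark a shared litter or day. The deviations of same-numbered libraries correlated between -0.11 and 0.14 over group pairs, which cannot settle whether they share more than a number. The replicate block changed none of these counts of called members.

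The log2 fold change of S100a8 in Tet2KO turned to -0.12 with number range added as a covariate and ran from -0.11 to 2.17 when 1 library was left out. The covariate fit in effect sets Tet2KO_VitD 2 alone against Tet2KO_vehicle. The fit without Tet2KO_VitD 1, at -0.11, does the same, so these are not separate checks. Left-out ranges that crossed 0 were, in Tet2KO under VitD, -2.42 to 4.87 for Ngp and -1.49 to 2.94 for Ltf; for genotype under vehicle, -0.25 to 1.91 for S100a8, -0.50 to 0.63 for Retnlg, -5.46 to 6.28 for Ngp and -2.66 to 1.77 for Ltf; and for the interaction, -8.74 to 2.99 for Ngp and -2.49 to 1.95 for Ltf. Leaving out WT_vehicle 1 or Tet2KO_vehicle 1 left Ngp with no count in that vehicle group. The wide ends of the Ngp ranges are therefore fitted values against no count, not measured folds. None of these values was called.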

Other observations

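Markers of further cell types were measured in the same libraries. Platelet markers, present in blood beside neutrophils, had 3 of 5 members called higher in WT under VitD, with Pf4 at a log2 of 1.32 (adjusted p = 0.0267 by edgeR) and Itga2b at 1.41 (adjusted p = 0.0283), while Gp1bb, at 0.11, was not called (adjusted p = 0.834). Mast cell markers had 1 of 5 called higher and a median log2 of -0.52, with the proteases Mcpt4, Cma1 and Cpa3 at -0.97, -0.52 and -0.77 and not called. Eosinophils left few reads: Epx had no count in any library, Prg2 had 0 to 11, and 1 of 5 markers, Ccr3, was tested (log2 2.24, adjusted p = 0.150). Squamous epithelium, another source of S100a8 and stefin RNA, had 0 of 3 tested markers called in WT by edgeR, with 1 at an unadjusted p under 0.05, and its 5 markers summed to 2.79 to 5.72 CPM per library. Thymocyte markers summed to 77.3 CPM in WT_vehicle 1, 11.2 and 22.2 CPM in Tet2KO_vehicle and 1.36 to 2.65 CPM in the 5 other libraries, and 2 of 4 were called lower in WT. Endothelial markers had 0 of 5 called in WT by edgeR, with 2 at an unadjusted p under 0.05.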
